A study of Mus musculus with 224 samples.

Results

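The comparison set liver against visceral adipose tissue of the same chow-fed mice, 36 animals with 1 library of each tissue. The members are therefore 72 libraries, chosen by the diet label RC (regular chow) and by the animal number that the liver and the fat library share. The rest of the series is 72 liver and fat libraries of the animals on the other diet, 72 soleus muscle libraries and 8 further liver libraries, and the last 2 sets were not used here. The mice were inbred: 12 BALB/cJ, 12 C57Bl/6J and 12 DBA/2J animals. They were sampled on day 5, 13 or 33 of the experiment by the sample labels, while the series' own design text names days 5 and 13 but not 33, with 4 animals in each of the 9 groups of strain and day. The labels name no transgene or agent, and all 36 animals ate regular chow. The sources used here give no ages, no sex and no hour of sampling. The 36 animals on a high-fat diet (HFD), with the same strains and days, were used only where the diet is named.

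Liver is built mainly of hepatocytes, which secrete most plasma proteins, make bile acids and urea, release glucose between meals, and oxidise drugs and fatty acids. Visceral fat is built of adipocytes, which hold triglyceride in a single large droplet and secrete adipokines, together with blood vessels, connective tissue, macrophages and a covering mesothelium. Lymph nodes and other lymphoid aggregates lie within visceral fat depots. Both tissues take up glucose and make fatty acids, in part with different gene products for the same chemical step. Hepatocyte identity is held by a small set of transcription factors that include HNF4A, the FOXA factors and C/EBP alpha, and adipocyte identity by PPARG with C/EBP alpha.

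Levels are log2 CPM, the log2 of read counts scaled to library size. The authors scaled the liver and the fat table separately, so levels were recomputed here from the recovered reads over the 12064 genes present in both tables, with 2 reads added at the mean library size. A gene with 0 reads stands at -3.67 on that scale. Fold changes on it understate the difference of genes that are low in 1 tissue. The difference D is liver minus fat within an animal, averaged with equal weight over the 9 groups. A gene was called when D was more than 2-fold by limma's treat test with a Benjamini-Hochberg adjusted p under 0.05. Genes present in a single table, 547 for liver and 4478 for fat, have no D, and their absence from the other table is a filter by the authors and not a measured 0.

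Letters of an HNF4 site were searched for upstream of the genes. HNF4A is a nuclear receptor, and the letters CAAAGTCCA are a form of the sequence it binds. These letters, searched on both strands in the 250 bases upstream of each RefSeq start, were present in 7 (2.73%) of the genes with D above 5 that had a promoter entry. They were present in 1 of 270 genes (0.37%) with D below -5, and in 43 of 9325 shared genes (0.461%). Over all 27025 promoter entries the share was 0.451%. Genes were matched to RefSeq by symbol, and 75 of the 331 genes above 5 and 91 of the 361 genes below -5 had no entry. These matches are a description of the letters in few genes, with no test. Windows around the match follow for 4 of the 7 genes and for the gene with D below -5, 5′ to 3′ on the gene's strand from RefSeq on GRCm38.p6, with the matched bases in capitals. They show enzymes of bile acid and drug metabolism, an amino acid transporter subunit and Fhl1, a LIM domain protein higher in fat, and were chosen after their values were seen. The 3 others above 5 were Agxt2, Cyp2c67 and Csrp3, the last itself a LIM domain protein (D 5.25).
Cyp8b1, chr9:121916334-121916402, minus strand: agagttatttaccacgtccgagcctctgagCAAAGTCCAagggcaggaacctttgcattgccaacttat
Cyp3a11, chr5:145879925-145879993, minus strand: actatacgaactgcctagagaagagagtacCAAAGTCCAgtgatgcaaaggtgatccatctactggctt
Cyp2c70, chr19:40187312-40187380, minus strand: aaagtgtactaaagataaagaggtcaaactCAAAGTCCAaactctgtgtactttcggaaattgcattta
Slc3a1, chr17:85028278-85028346: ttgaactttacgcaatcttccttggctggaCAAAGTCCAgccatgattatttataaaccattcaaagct
Fhl1, chrX:56786281-56786349: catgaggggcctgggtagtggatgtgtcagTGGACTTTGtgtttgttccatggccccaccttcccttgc

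The match lies 39 bases before the start of Slc3a1, 64 before Cyp2c70, 67 before Cyp8b1 and 109 before Cyp3a11. In Fhl1 it lies on the other strand, 216 bases before the start. D was 9.63 for Cyp8b1, a sterol hydroxylase of bile acid synthesis, 11.18 for Cyp3a11, 8.98 for Cyp2c70, 6.32 for Slc3a1 and -5.62 for Fhl1. The C/EBP palindrome TTGCGCAA was in none of either group (0% and 0%). The direct repeat GGTCAAAGG was in 2 genes (0.781%) above 5 and in 0 below -5.

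The liver libraries held 19500288 to 29444812 reads and the fat libraries 20107663 to 46795074. The 10 most abundant genes of a library took 16.9% to 21.9% of liver reads and 8.04% to 29.3% of fat reads. By 56 genes that differ between the strains in the same direction in both tissues, all 36 liver and all 36 fat chow libraries were nearest to their own strain's chow median. The genes and medians came from these same chow libraries, so that result is no independent check of their labels. On HFD all 36 liver libraries and 34 of 36 fat libraries were nearest to their own strain's chow median. The fat of 2 animals labelled BALB/cJ was nearest to another strain, and diet results are given with and without those animals. Of the chow fat libraries 21 of 36 stood apart by B and T cell genes, and tissue results are given without them below.

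Liver and fat differed in most shared genes. Of 12064 genes, 1133 (9.39%) were more than 2-fold higher in liver and 5567 (46.1%) more than 2-fold higher in fat, and 5953 of the 6700 called genes had 1 sign in all 36 animals. The median D over all genes was -1.04. After the median log2 CPM of every library was set to the same value the split was 2313 (19.2%) higher in liver and 2417 (20%) higher in fat. Centring balances the directions by construction, so it does not show which scaling is nearer to the RNA content of the tissues. Every liver library lay above every fat library for 878 genes (7.28%), and every fat library above every liver library for 4277 (35.5%). Fewer cells of a type and less RNA per cell cannot be told apart in these bulk samples. Animals of the 3 ranges of animal numbers in the labels each gave the sign of the pooled D for 99.9% to 100% of called genes. Those genes were called from the same animals, so that share is no independent check.

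**Figure D1:**
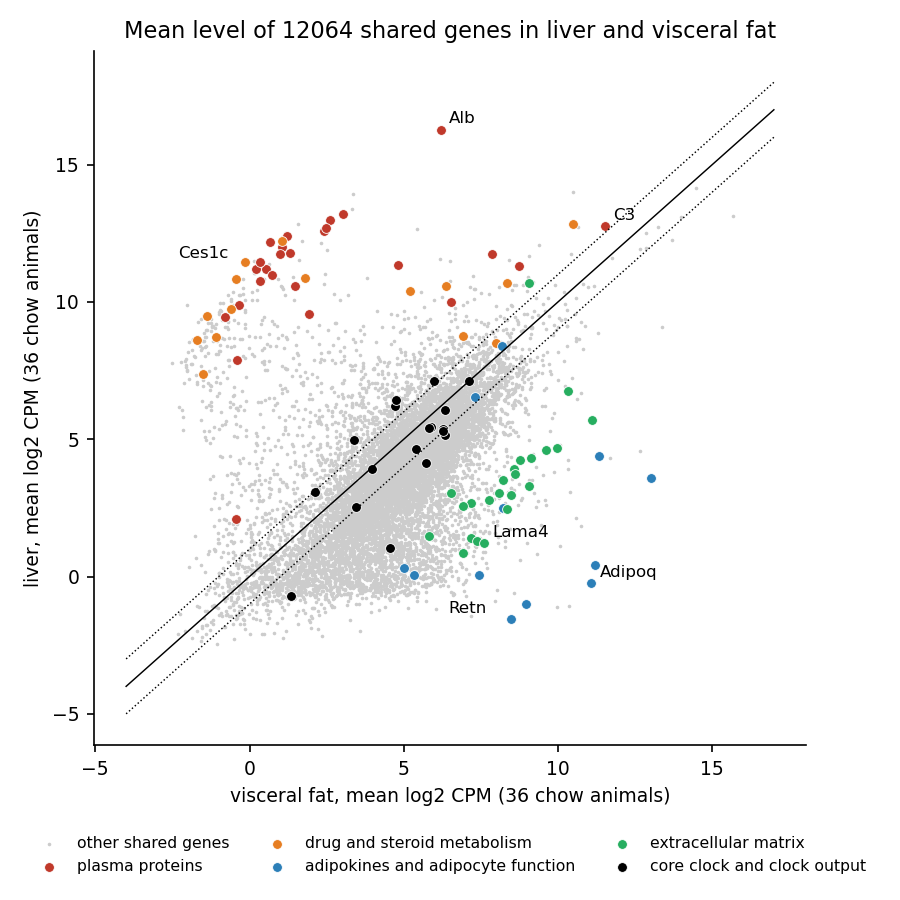
Mean log2 CPM of each of the 12064 shared genes over 36 chow animals, fat on the x axis and liver on the y axis. Coloured points are members of 5 gene lists, the solid line marks equal levels and the dotted lines a 2-fold difference. Plasma protein genes (red) all lie above the solid line, the nearest being C3 at D 1.24, and 22 of 23 extracellular matrix genes (green) lie below it.

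The genes highest in liver relative to fat were hepatocyte enzymes and secreted proteins. Ces1c, a carboxylesterase, ran from 11 to 11.89 log2 CPM in liver (median 11.44) and from -3.67 to 4.01 in fat (median -0.58). Its D was 11.60 ± 0.30 (SE, 36 animals), 3115-fold on this scale, with an adjusted p of 3.27e-25. Cps1, the entry enzyme of the urea cycle, ran from 11.68 to 12.56 in liver and from -3.67 to 4.37 in fat (medians 12.13 and 0.28), with D 11.45 ± 0.37. Apob, the structural protein of very low density lipoprotein, ran from 11.79 to 12.81 in liver and from -3.67 to 4.67 in fat, with D 11.20 ± 0.36. The 2 tissues did not overlap for these genes, and the spread lay in fat, where some libraries had no read.

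The remaining genes of the 12 highest D were Fga (fibrinogen alpha chain), Pzp and Mug1 (protease inhibitors of plasma), Mat1a (methionine adenosyltransferase), Cyp2c29, Cyp3a11 and Cyp2d9 (cytochromes P450), Gc (vitamin D binding protein) and Plg (plasminogen). Their D ran from 11.06 to 11.54. Members of the Ces1, Mug, Cyp2c, Cyp2d and Cyp3a families have close copies, so reads may be divided among them.

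The genes highest in fat relative to liver were those of the lipid droplet and of adipocyte secretion. Plin1, the droplet coat protein of adipocytes, ran from 9.20 to 11.39 log2 CPM in fat (median 9.97) and from -3.67 to 5.03 in liver (median -1.51). Its D was -11.45 ± 0.32 with an adjusted p of 4.71e-24. Adipoq, which encodes adiponectin, ran from 9.92 to 12.26 in fat and from -3.67 to 4.89 in liver, with D -11.32 ± 0.33. Fabp4, the fatty acid binding protein of adipocytes and macrophages, ran from 11.75 to 14.19 in fat and from 2.07 to 7.24 in liver, with D -9.44 ± 0.20. Every fat library was above every liver library for these genes, and the liver values spread over several log2 units between animals.

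Further genes of that end were Aoc3 (a cell-surface amine oxidase, D -11.08), Cfd (adipsin, -10.76), Slc1a5 (a neutral amino acid transporter, -8.93) and Cidec (droplet fusion, -8.90). Next stood Cav1 (caveolin, -8.46), Npr3 (natriuretic peptide clearance receptor, -8.15), Lpl (lipoprotein lipase, -8.09) and Pnpla3 (-7.76).

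**Figure D2:**
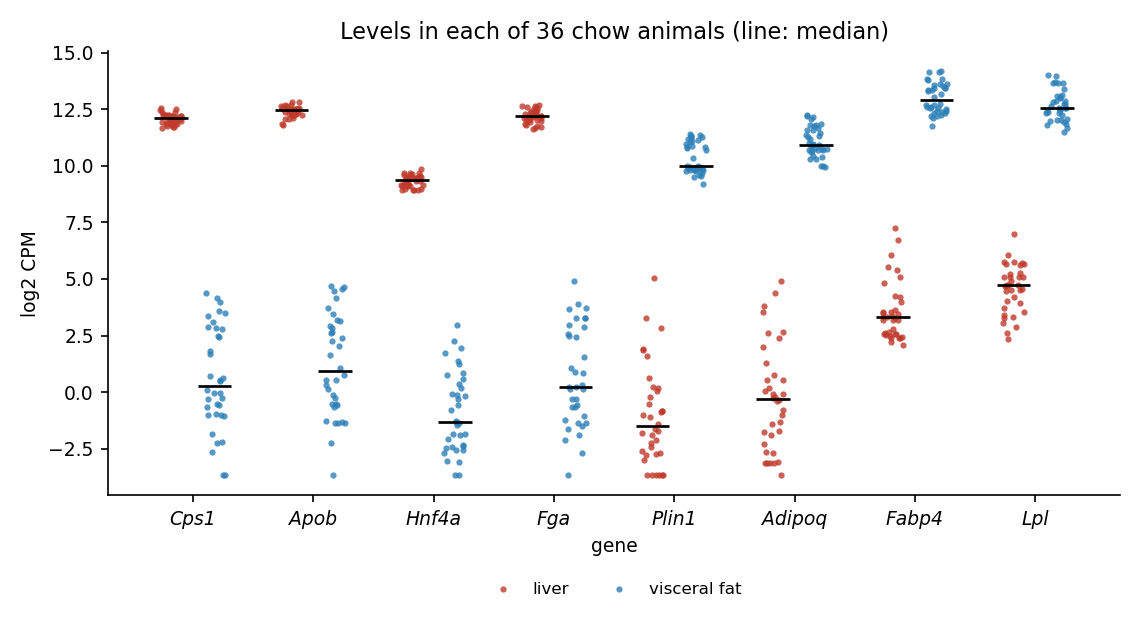
Log2 CPM of 8 genes in each of 36 chow animals, liver in red and visceral fat in blue, with a black line at each median. Cps1, Apob, Hnf4a and Fga are tight in liver and spread in fat, where libraries reach -3.67 (0 reads), and Plin1 and Adipoq are spread in liver.

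Secretory functions of the liver were called throughout. All 26 plasma protein genes were higher in liver, against 9.39% of all genes, with a median D of 10.21 against -1.04 over all genes. Alb (albumin) ran from 15.91 to 16.68 in liver and from 2.97 to 9.37 in fat. C3, the central complement component, had the smallest difference: 12.06 to 13.51 in liver against 10.60 to 12.35 in fat, D 1.24 ± 0.08, adjusted p 0.00609. C3 was the member whose call was lost without the lymphoid-rich libraries, where D was 1.11, and after quantile normalization, where it was 0.37.

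Bile acid and nitrogen metabolism gave the same picture by count. Of all genes 9.39% were higher in liver and 46.1% in fat. Of 15 bile acid genes 14 were higher in liver and 0 in fat (median D 8.08). The highest were the hepatocyte carriers Slco1b2 (10.96), Slc10a1 (10.56) and Abcb11 (10.36). Hsd3b7, an enzyme of bile acid synthesis, was not called: it ran from 0.87 to 3.48 in liver and from 0.64 to 3.12 in fat (D 0.31 ± 0.08), though it was called higher in liver after median centring (1.35). Cyp7a1, which opens the classical route from cholesterol to bile acids, was in the liver table alone, at 6.84 ± 1.18 log2 CPM (SD, n = 36 animals), as were Akr1d1 and Nr0b2. All 19 genes of the urea cycle and amino acid breakdown were higher in liver (median D 8.34), from Fah, the last step of tyrosine breakdown, at 2.23 to Cps1 at 11.45. Tat (10.47), which breaks down tyrosine, lay near the upper end. Drug and steroid metabolism had 14 of 15 genes higher in liver (median D 9.07). Por, the electron donor to the cytochromes P450, was the exception at 0.50 ± 0.11, with overlapping ranges of 6.94 to 10.24 in liver and 7.11 to 9.26 in fat, and it too was called after centring (1.54).

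Glucose handling divided more. Of 15 genes of glucose production and storage 11 were higher in liver and 1 in fat (median D 5.39), against 9.39% and 46.1% of all genes. G6pc, which releases glucose from glucose 6-phosphate, ran from 7.56 to 10.45 in liver and from -3.04 to 2.40 in fat, and Fbp1 had D 10.23. Pck1, which feeds both gluconeogenesis and the glycerol made in fat, differed less: D was 1.32 ± 0.13 with liver higher in 31 of 36 animals (adjusted p 0.019), and it was not called without the lymphoid-rich libraries (0.72, adjusted p 1). Foxo1, a transcription factor of the fasting response, was higher in fat (D -1.58 ± 0.05), a call that was lost after median centring. Pygl, the phosphorylase called the liver form, was level: 8.42 to 9.55 in liver and 7.66 to 10.23 in fat (D -0.09 ± 0.09). The 4 ketone body genes were all higher in liver, from Acat1 at 1.15 to Bdh1 at 4.98, and Acat1 was not called without the lymphoid-rich libraries (0.83).

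Cholesterol synthesis genes were called in 1 direction and fatty acid synthesis genes in both. Of 24 genes of cholesterol synthesis and uptake 11 were higher in liver and 0 in fat, with 13 not called (median D 1.05). The shares of all genes were 9.39% and 46.1%. After centring 16 of the 24 were higher in liver, against 19.2% of all genes. Tm7sf2, a sterol reductase, ran from 6.34 to 7.54 in liver and from 2.97 to 4.50 in fat (D 3.43 ± 0.06). Nsdhl, another enzyme of the route, was at -0.23 ± 0.08 and not called.

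Of 16 fatty acid synthesis genes 8 were higher in fat and 3 in liver (median D -1.22; 5 and 4 after centring), so that the share higher in fat was near the 46.1% of all genes. Fasn, fatty acid synthase, ran from 11.24 to 14.81 in fat (median 13.52) and from 7.47 to 10.73 in liver (median 9.09), D -4.30 ± 0.16. Acaca, the acetyl-CoA carboxylase of the cytosol, had D -4.04 ± 0.13, and Scd2, a desaturase, -6.75 ± 0.10. The 3 members higher in liver were Fads2 (3.89) and Fads1 (2.33), the desaturases of polyunsaturated fatty acids, and Elovl5 (1.75), which elongates them. Srebf1, which encodes a transcription factor of this pathway, was level at 0.01 ± 0.09, from 5.98 to 9.40 in liver and from 7.06 to 8.90 in fat.

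Triglyceride genes held both directions. Of 18 genes of triglyceride synthesis and the droplet 8 were higher in fat and 4 in liver (median D -0.83, and 0.20 after centring, where 5 were called each way), and the share higher in fat was near that of all genes (46.1%). Cideb, the droplet protein of hepatocytes, had D 8.10 and Cidec -8.90. Plin2, a droplet coat of many cell types, was level at -0.19 ± 0.11. Of 14 genes of triglyceride breakdown and glycerol use 8 were higher in fat and 4 in liver, against 46.1% and 9.39% of all genes. Their median D was -1.89, with Lpl at -8.09, and 5 and 4 were called after centring. Of 12 adipokine and adipocyte genes 10 were higher in fat (median D -7.16). Retn (resistin) had D -10.05, and Rarres2 (chemerin) was not called: 8.11 to 8.88 in liver and 6.68 to 9.61 in fat (D 0.22 ± 0.09). Lep, which encodes leptin, was in the fat table alone at 8.43 ± 1.21 (SD, n = 36 animals).

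Mitochondrial fatty acid oxidation genes stood toward liver. Of 18 genes 6 were higher in liver and 0 in fat, against 9.39% and 46.1% of all genes (median D 0.65, against -1.04). After centring 12 were higher in liver, against 19.2% of all genes, and without the lymphoid-rich libraries 3 were. Acaa2, a thiolase, was highest at 2.99 ± 0.06, Cpt1a, the gate of mitochondrial uptake, at 1.99 ± 0.07. Hadha, a subunit of the trifunctional protein, was at -0.01 ± 0.06. None of 7 mitochondrially encoded genes was called (D -0.89 to -0.03).

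Transcription factors of both tissues followed their names unevenly. Higher in liver were 7 of the 8 liver factors that both tables held, against 9.39% of all genes. Hnf4a ran from 8.92 to 9.84 in liver and from -3.67 to 2.97 in fat (D 10.22 ± 0.29), and Mlxipl, the carbohydrate-responsive factor ChREBP, was not called (0.55 ± 0.14; called after centring at 1.58). Foxa1, Foxa2, Foxa3 and Onecut1 were in the liver table alone. Of 8 fat factors 3 were higher in fat and 2 in liver, against 46.1% and 9.39% of all genes. Pparg ran from 6.03 to 8.41 in fat and from 1.71 to 4.23 in liver (D -4.08 ± 0.11). Cebpa, listed with fat but central to both cell types, was level: 7.65 to 9.30 in liver and 7.14 to 9.41 in fat (D 0.05 ± 0.10). Cebpb (2.28) and Klf15 (2.19), which also act in adipocyte formation, were the members higher in liver.

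Connective tissue genes were higher in fat. Of 23 extracellular matrix genes 22 were higher in fat (median D -4.95), against 46.1% of all genes. Fn1, the fibronectin that hepatocytes also secrete into plasma, was higher in liver (1.64 ± 0.09), and was not called after quantile normalization, at 1.02. Lama4, a basement membrane laminin, ran from 6.51 to 8.54 in fat and from 0.25 to 2.92 in liver (D -6.41 ± 0.10). Fbn1 and Eln, of the elastic fibre, were both at -6.07.

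Of 20 interferon-stimulated genes 8 were higher in fat and 1 in liver (median D -0.75, and 0.28 after centring, where 4 and 3 were called). The share higher in fat was below the 46.1% of all genes. Gbp2, a guanylate-binding protein, ran from 6.19 to 7.34 in fat and from 0.20 to 2.82 in liver (D -5.25 ± 0.07), and Dhx58 was level at 0.01 ± 0.13. Of 10 genes of glucocorticoid and metal response 5 were higher in fat and 1 in liver (median D -1.02, near 0 after centring, where 1 was called each way), shares close to those of all genes (46.1% and 9.39%). Errfi1, an inhibitor of epidermal growth factor receptor signalling, was the member higher in liver (4.80), and Pdk4, which closes pyruvate dehydrogenase, was at -3.82.

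Enzymes and carriers with 2 gene forms showed the tissues exchanging forms. Of 27 fixed pairs 23 had both genes in both tables. In 12 of them the form listed first was higher in liver and the other higher in fat, both called, and in 20 the D of the first form was above that of the second in all 36 animals. Glucose enters hepatocytes through Slc2a2 (8.08 to 9.27 in liver, -2.60 to 2.48 in fat, D 8.77 ± 0.14) and insulin-responsive fat through Slc2a4 (5.79 to 8.42 in fat, -1.92 to 2.86 in liver, D -7.38 ± 0.19). Pyruvate kinase had Pklr at 10.36 and Pkm at -6.19. The values are differences for each gene and not levels compared between genes.

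Lipid handling gave further exchanges. Fatty acid binding proteins had Fabp1 at 9.41 and Fabp4 at -9.44, the vascular lipases Lipc at 7.02 and Lpl at -8.09, and the nuclear receptors Ppara at 3.76 and Pparg at -4.08. Methionine adenosyltransferase had Mat1a at 11.35 and Mat2a at -2.32. Perilipin had Plin5, a coat of oxidative tissues, at 2.43 and Plin1 at -11.45. Exceptions were alanine aminotransferase, where Gpt (1.41) and Gpt2 (1.42) were both called higher in liver and the order held in 17 of 36 animals, and phosphofructokinase. Neither Gpt (0.90) nor Gpt2 (0.79) was called without the lymphoid-rich libraries. In phosphofructokinase the form called liver, Pfkl, was higher in fat (D -1.85 ± 0.06, not called after centring at -0.82) and lay below Pfkm (-0.65 ± 0.08) in all but 3 animals. The pairs of Fbp2, Aqp7 and Arg2 had that gene in the fat table alone, and Cpt1b was in neither table.

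**Figure D3:**
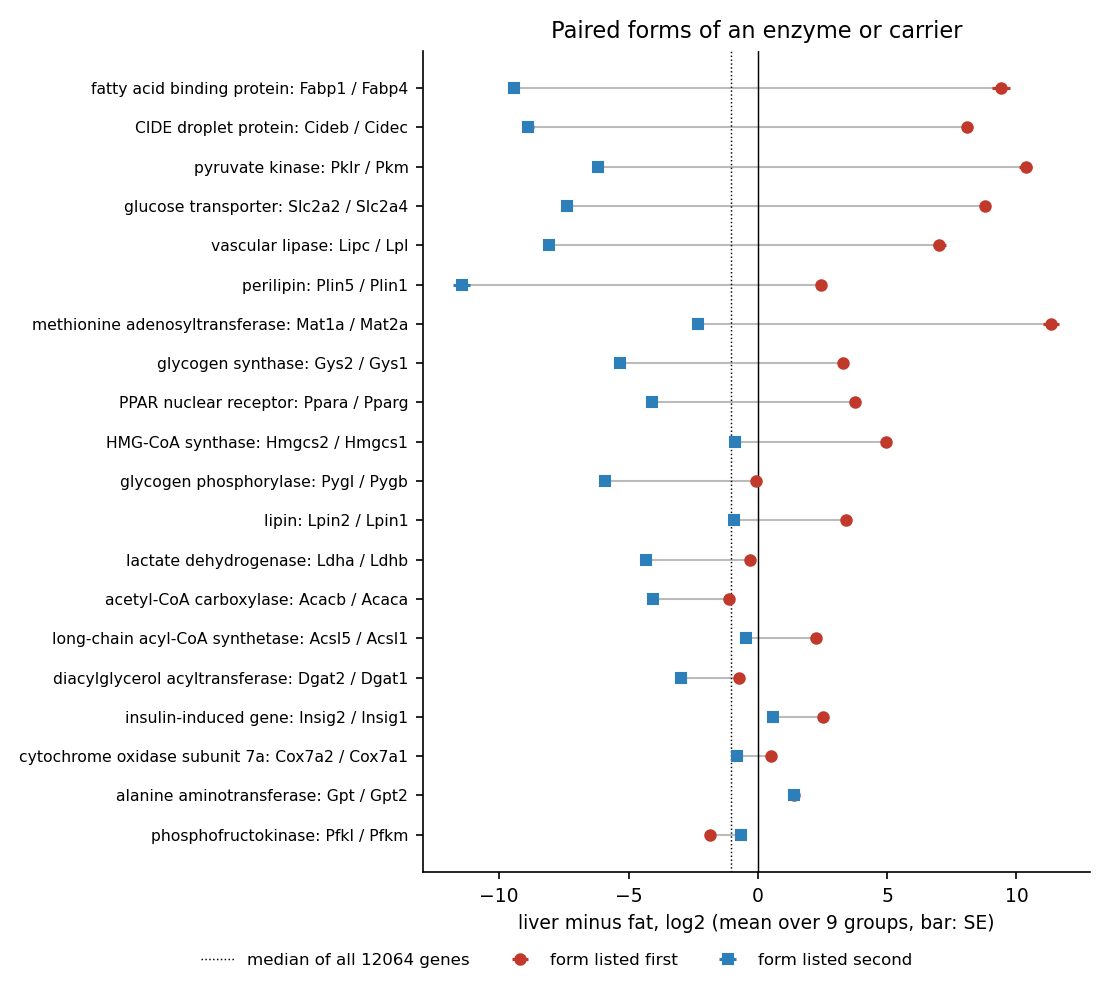
D (liver minus fat, log2, mean over 9 groups; bars are SE) for 20 of the 23 pairs of gene forms, the form listed first as red circles and the second as blue squares. The dotted line is the median of all 12064 genes (-1.04). Circles lie to the right of squares except in phosphofructokinase and, within 0.01, alanine aminotransferase.

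The tissue labels held against defining markers. The summed CPM of 8 hepatocyte markers ran from 94455 to 160699 in liver and from 283 to 16504 in fat (median 1393). All 8 markers were higher in liver. The sum of adipocyte markers ran from 6595 to 52648 in fat (9 markers) and from 22.1 to 356 in liver (8 markers, median 46.0), and all 8 shared markers were higher in fat. In fat Cyp2e1 made up a median of 94.3% of the hepatocyte sum (49.1% to 99.7%). Alb averaged 6.19 log2 CPM there and Cps1 0.63. Expression within a tissue and RNA carried over from the other cannot be told apart here. Of 8 macrophage markers 8 were higher in fat, as were all 7 vascular endothelial markers (6 after centring) and all 4 mesothelial markers. Of all genes 46.1% were higher in fat. Mesothelial sums ran from 42.1 to 1281 CPM in fat and from 3.33 to 14.6 in liver.

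Lymphoid content divided the fat libraries. The mean log2 CPM of 18 B and T cell markers was 5.87 to 7.66 in 21 of 36 chow fat libraries and -0.42 to 1.73 in the other 15, with none between, and 3.39 was the limit used. C57Bl/6J had 10 lymphoid-rich libraries of 12, BALB/cJ 8 of 12 and DBA/2J 3 of 12, and there were 8 on day 5, 8 on day 13 and 5 on day 33. In the lymphoid-rich libraries the median summed B cell markers were 2172 CPM, against 12.8 in the others. The adipocyte sum went the other way, with medians of 11402 and 33000 CPM. The median D of an animal ran from -1.35 to -0.947 with a lymphoid-rich library and from -0.850 to -0.635 without, 2 ranges that do not overlap.

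**Figure D4:**
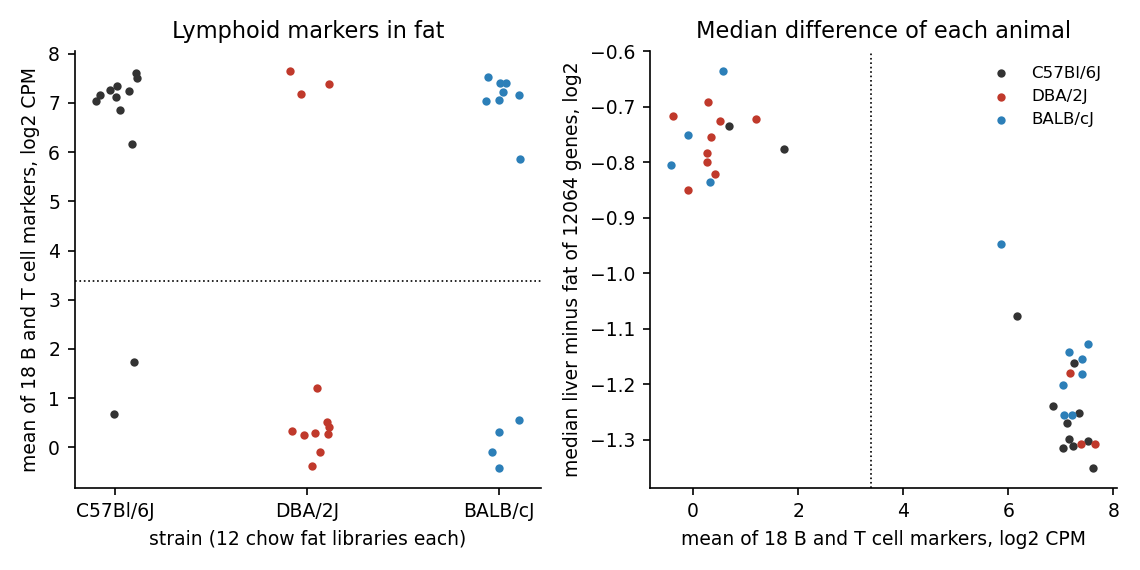
Left, mean log2 CPM of 18 B and T cell markers in each chow fat library by strain, with a dotted line at the limit of 3.39. Right, the same mean on the x axis against the median D of all 12064 genes in each animal, where the 21 lymphoid-rich animals lie below -0.9 and the other 15 above.

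Without the 21 lymphoid-rich animals the calls were 1152 (9.55%) higher in liver and 4204 (34.8%) higher in fat, with a median D of -0.77. That fit had separate strain and day effects and 10 residual degrees of freedom, so its D is not the mean over 9 groups. Called both with all animals and without the lymphoid-rich ones were 1012 liver-higher and 4057 fat-higher genes, and 29 fat-higher genes turned sign. Cd4, a T cell gene, was one: D was -3.03 over all animals, with liver higher in 14 of 36, and 1.17 without the lymphoid-rich libraries. Cd79b, of the B cell receptor, went from -5.75 to -2.05, and Marco, a scavenger receptor of macrophages, from -5.10 to -1.27. Marco was listed with Kupffer cells, the macrophages of liver, and that list was divided over all animals: Vsig4 (3.23) and Cd5l (1.83) were higher in liver and Timd4 (-2.97) in fat. Without the lymphoid-rich libraries Marco and Timd4 (-0.66) were not called. Lrat, the retinol esterase of stellate cells, was not called over all animals (1.21 ± 0.44) and stood at 4.64 without them. Clec4g, of the liver sinusoidal endothelium, went from 4.13 to 6.96. It was the only one of 5 sinusoidal markers called higher in liver over all animals, and 3 were higher in fat, down to Lyve1 at -5.18 (median D -1.37). The other 7 B cell and 9 T cell markers were in the fat table alone.

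Strains differed in D for 6102 genes (50.6%) by limma's F test, and for 2426 without the lymphoid-rich libraries; 2004 genes were called in both. The strain counts of lymphoid-rich libraries differ as given, and their part in the full count was not tested. For the 6 genes named for strain, the difference lay mainly in 1 tissue and was called in every alternative run. Serpina3c, a serine protease inhibitor, ran from -1.32 to 2.45 log2 CPM in C57Bl/6J liver, where DBA/2J ran from 8.23 to 9.37 and BALB/cJ from 8.77 to 9.27. In fat the means of those strains were 6.74, 6.6 and 6.71. D was therefore -6.31, 2.36 and 2.30 (adjusted p 1.91e-19), so that the tissue with the higher level differed between strains. The Serpina3 genes are near-identical copies, and reads were mapped to a single reference genome.

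Sort1, a sorting receptor of hepatic lipoprotein secretion, ran from 0.01 to 1.43 in BALB/cJ liver and from 4.33 to 5.37 in the other strains' liver, with fat means of 8.19 to 8.75. Its D was -7.60 in BALB/cJ, against -3.41 in C57Bl/6J and -3.95 in DBA/2J (adjusted p 3.26e-14). Rassf4, a Ras-association domain protein, was high in DBA/2J liver alone among liver groups (mean 7.04, against 1.76 in C57Bl/6J and 1.55 in BALB/cJ; adjusted p 1.57e-16). Mme, the peptidase neprilysin, was low in DBA/2J liver (2.19, against 5.59 and 5.97; 1.94e-14). Abca3, a lipid transporter, was lower in C57Bl/6J liver (6.49, against 8.60 and 8.31; 2.36e-14).

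Hal, the histidine ammonia-lyase of amino acid breakdown, differed in fat instead. Its fat means were 3.86 ± 0.29 for BALB/cJ, 2.39 ± 0.34 for DBA/2J and 0.51 ± 0.67 for C57Bl/6J (SD, n = 12 animals each), and the range of BALB/cJ lay above that of DBA/2J. Its liver means were 8.04 to 8.80, and D was 4.18, 6.41 and 8.03 in that order (adjusted p 3.29e-14).

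The day of sampling moved D for 18 genes (0.149%), and for 0 without the lymphoid-rich libraries. By the same F test in limma 1423 genes had an unadjusted p under 0.05 over all animals, and 1144 without those libraries. Wsb1, a component of an E3 ubiquitin ligase, had D -2.33 at day 5, -1.52 at day 13 and -1.18 at day 33, with an adjusted p of 0.0357. Ehd4, an endocytic recycling protein, had -3.93, -3.81 and -4.52 (0.0378), and Bmyc, a Myc-related gene, -1.70, -1.46 and -0.90 (0.0378). The count moved between 4 and 49 genes when single animals were left out, and none of these 3 calls stood in every alternative.

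HFD changed D for 504 genes (4.18%) over 72 animals, 250 of them upward. Without the lymphoid-rich libraries 541 were called, and 45.2% of the 504 were among them in the same direction. Without the 2 HFD animals whose fat went against the strain label the count was 605. The median D on HFD was -1.06, and 6698 of the 6700 genes called on chow had the same sign there. Of the lists, 8 of 16 fatty acid synthesis genes and 7 of 18 oxidation genes moved upward in D, and 7 of 24 cholesterol genes moved downward.

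Of the 250 genes whose D rose on HFD, the mean level moved more in liver for 138 and more in fat for 112. In all 8 fatty acid synthesis genes called for diet it moved more in fat. Their median change was -1.42 in fat and -0.29 in liver. Elovl6, an elongase, averaged 8.57 log2 CPM in fat on chow and 6.41 on HFD, and 6.73 and 6.42 in liver, so that D rose by 1.85 ± 0.24 (adjusted p 6.75e-07; 1.80 without the 2 animals). Fasn averaged 13.38 in fat on chow and 11.34 on HFD, with D up by 1.63 ± 0.31 (0.000577; 1.35 without them). Acaca rose in D by 1.61 ± 0.30 (0.000474; 1.33). Marc1, a molybdenum enzyme of mitochondria, rose in D by 1.26 ± 0.33 (0.0152; 0.89) and averaged 5.16 and 3.82 in fat. It was not called without the lymphoid-rich libraries.

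Of the genes whose D fell on HFD, the mean level moved more in fat for 171 and more in liver for 83. In the 4 named ones it moved more in liver. Upp2, a uridine phosphorylase, averaged 8.93 in liver on chow and 7.66 on HFD, and D fell by 1.62 (adjusted p 5.46e-05; -1.46 without the 2 animals). Sqle, squalene epoxidase, averaged 5.65 and 4.43 in liver against 4.46 and 4.48 in fat, and D fell by 1.24 (0.000381; -1.09). Ntrk2, a neurotrophin receptor, fell in D by 1.53 (0.00145; -1.35), and Ly6a, a surface antigen of stem cells and lymphocytes, by 1.17 (5.68e-06; -1.23). In liver Ntrk2 averaged 3.46 and 2.25, and Ly6a 2.58 and 1.60.

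Few genes passed a test of whether animals departed from their group in liver and fat together. The correlation r of the 2 tissues' deviations from the group mean over 36 animals had a median of 0.069 over all genes. It was positive for 64.6% of them. By a t test on 26 degrees of freedom adjusted over all genes, 18 genes (0.149%) passed with a positive r and 0 with a negative r. Negative r with an unadjusted p under 0.05 was found for 91 genes. The 18 genes included 7 of 18 genes of the core clock and its output: Dbp, Nr1d1, Nr1d2, Per3, Tef, Ciart and Npas2. All 18 clock genes had a positive r, with a median of 0.636. The circadian clock is a feedback loop in which BMAL1, encoded by Arntl, with CLOCK or NPAS2 drives the Per, Cry, Nr1d and Dbp genes, whose products in turn repress or modify it. In D the clock list was mixed: 4 of 18 were higher in each tissue (median D -0.41, and 0.62 after centring, with 5 higher in liver and 1 in fat). Of all genes 9.39% were higher in liver and 46.1% in fat.

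Dbp, a transcription factor of clock output, ran from 0.35 to 8.05 in liver and from 2.75 to 8.04 in fat, and its D was -0.41 ± 0.17. Its deviations ran from -3.30 to 3.58 in liver and from -1.50 to 1.73 in fat. Pearson's r was 0.83 and Spearman's rho 0.81 (n = 36 animals), with a permutation p of 2e-05 for r over 100000 permutations. Without the 2 animals farthest from the median in liver r was 0.77. Nr1d2, a repressor of the loop, had r 0.83 and rho 0.79, and 0.80 without 2 animals. Per3, a period gene, had r 0.79 and rho 0.74, and 0.70 without 2. Other genes past the test were Cdkn1a, a cell cycle inhibitor (r 0.81), Zbtb16, a zinc finger factor induced by glucocorticoid (0.77), and Fkbp5, a co-chaperone of the glucocorticoid receptor (0.77). Per3 did not pass on the deposited, centred or quantile scales (r 0.63 to 0.67), Cdkn1a did not on the quantile scale (0.69), and Fkbp5 did not without 1 BALB/cJ animal of day 33 (0.64).

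**Figure D5:**
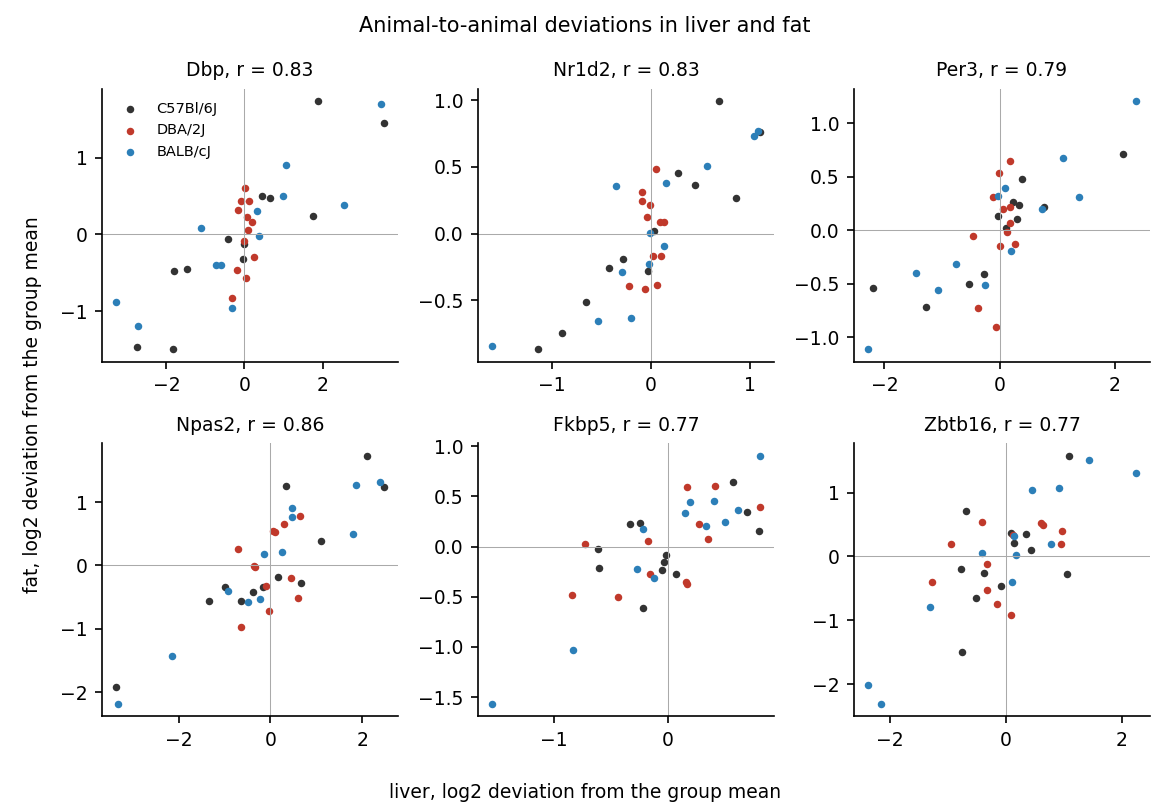
Deviation of each of 36 chow animals from its strain and day group mean, log2, liver on the x axis and fat on the y axis, for 4 clock genes, Fkbp5 and Zbtb16, coloured by strain. Points rise from lower left to upper right with r 0.77 to 0.86, and DBA/2J animals (red) span little of the liver axis for the clock genes.

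The values of r were unequal among strains, and that difference was not tested. For Dbp r was 0.90 in C57Bl/6J, 0.86 in BALB/cJ and 0.35 in DBA/2J, and for Nr1d2 0.93, 0.85 and 0.18 (12 animals each). In the 3 number ranges r for Dbp was 0.57, 0.88 and 0.89, and for Per3 0.76, 0.78 and 0.88. Without the lymphoid-rich libraries r was 0.90 for Dbp, 0.88 for Nr1d2, 0.90 for Per3 and 0.94 for Fkbp5, and lower for Zbtb16 (0.74) and Cdkn1a (0.58). Of the other clock genes that passed, Tef had 0.92 and Npas2 0.86, against 0.74 and 0.86 over all chow animals. Ciart fell from 0.72 to 0.60 and Nr1d1 from 0.70 to 0.37. With the 15 animals left 0 genes passed, of 742 with a positive r at an unadjusted p under 0.05. Deviations were taken there from separate strain and day effects, not from the group means.

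In the HFD animals, which share no library with the chow animals, 10 genes passed (0.0829%), and 7 of them were among the 18. Of the 18, 16 had a positive r there, and P2rx7 (-0.28) and Rnf125 (-0.13) did not. The median r of the clock genes was 0.599, or 0.637 without the 2 animals whose fat went against the label, where 18 genes passed and 10 were among the chow genes. On chow Dbp and Npas2, of opposite arms of the loop, had r -0.88 within liver and -0.82 within fat. Both had already passed the covariation test in these chow animals, and no other pair was examined. Liver Dbp and fat Npas2 had r -0.79, and -0.68 without the 2 animals farthest out. That r is not independent of the values within each tissue and of the covariation between tissues. The rho of the 3 relations was -0.79, -0.76 and -0.70. The permutation p for r, adjusted over these 3 relations alone, was 1e-05 for each, the smallest that the permutations can give. The hour at which each animal was sampled was not given, and its part was not tested.

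Clock factors bind the E-box CACGTG and the D-box TTATGTAA. In the 250 upstream bases the E-box was in 4 of 16 covarying genes with an entry (25%) and in 9.99% of shared genes, and the D-box in 1 of 16 (6.25%) and in 0.579% of shared genes, both strands searched. These letters were chosen after the genes were seen. Ciart, a clock repressor, held 3 E-boxes (44, 58 and 116 bases before its start) and Per3 held 2 D-boxes (158 and 205 bases before). One window of each is shown from RefSeq on GRCm38.p6, 5′ to 3′ on the gene's minus strand, with the match in capitals.
Ciart, chr3:95882309-95882374: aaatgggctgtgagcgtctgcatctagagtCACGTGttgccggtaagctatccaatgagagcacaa
Per3, chr4:151044786-151044853: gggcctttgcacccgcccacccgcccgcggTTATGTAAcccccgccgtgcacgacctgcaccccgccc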

How the data were processed

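Visceral fat and liver RNA of each mouse was sequenced on an Illumina instrument from TruSeq Stranded mRNA libraries, per the labels' protocols. The submitters' processing notes name edgeR, STAR 2.5.3a and build GRCm38, and neither the labels nor the files name the counter, annotation or low-count filter. As deposited, values are log2 CPM that the authors scaled in each tissue's table separately, with a prior count of 0.25 reads in liver and 2 in fat worked out from the values. The header lines are 1 cell short, so each title was taken for the column after it. Whole reads were recovered (100% of values under 2000 reads within 0.05 of a whole read) and log2 CPM was recomputed over the 12064 genes in both tables. In the chow libraries those genes hold 98.9% to 99.2% of liver reads and 95.0% to 97.8% of fat reads. They hold 80.4% and 79.4% of reads in the fat of the 2 HFD animals that went against the strain label. Of the 12064 genes 12055 were given symbols from GENCODE M21 (GRCm38). A filter of log2 CPM 0 in 4 libraries removed none of them.

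limma 3.58.1 (R 4.3.3) was fitted to D with 9 group means, 27 residual and 3.05 prior degrees of freedom, and a variance trend. Without the lymphoid-rich libraries strain and day entered as separate effects, with 10 residual degrees of freedom. Values of p are two-sided and adjusted by Benjamini-Hochberg over all genes. The steps were tested on simulated data. Pairing comes from the animal number in the labels. Liver and fat deviations of the same animal correlated at a median of 0.059 (lowest -0.17, highest 0.22) across genes. For other animals of the group it was -0.022. Deviations sum to 0 within a group, so that value is tied to the first and is no independent reference. Liver deviations correlated best with the animal's own fat, among the 4 of its group, in 21 of 36 animals. Nothing beyond the animal numbers says how replicates were raised. Named genes lay in the upper part of mean levels, split at the median, and had an ordinary symbol: the 12 highest and 12 lowest D with 1 sign in 36 animals, the 6 and 4 smallest p for strain and day, the 4 highest and 4 lowest for diet, the 6 strongest for covariation, all fixed pairs, and the 3 members of largest and the 1 of smallest absolute D in each list. Alb, Gc, G6pc, Cyp8b1, Cyp2c70, Slc3a1, Fhl1, Csrp3, Tm7sf2, Fads1, Fads2, Elovl5, Pck1, Foxo1, Fn1, Rarres2, Tat, Cpt1a, Cebpb and Klf15, and the marker genes named beside lymphoid content, were added after their values were seen where that rule does not name them. Some genes that the rule names, and a further searched promoter sequence, are not reported here. Members, lists and markers were chosen with earlier results of these data known. Alternatives changed the scaling, prior, filter, weights, pairing, number range, lymphoid content and single animals. Reads of all strains were mapped to 1 reference.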

Additional observations from a re-analysis of the deposited data

Results flagged for a closer look

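The difference between liver and fat was unequal among strains, by limma's F test on the strain contrasts, for 6 genes named by the smallest p. Their adjusted p was 1.91e-19 for Serpina3c, 1.57e-16 for Rassf4, 1.94e-14 for Mme, 2.36e-14 for Abca3, 3.26e-14 for Sort1 and 3.29e-14 for Hal. In 5 of them the strain that stood apart did so in liver, and in Hal the fat levels differed.

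Days differed, by the F test on the day contrasts, at an adjusted p of 0.0357 for Wsb1 and 0.0378 for both Ehd4 and Bmyc. Tceal8, the next gene by the same rule, was just above the threshold.

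Chow and HFD differed, by limma's test over 72 animals, for 8 named genes. D was higher on HFD for Elovl6 (adjusted p 6.75e-07), Fasn (0.000577), Acaca (0.000474) and Marc1 (0.0152). D was lower on HFD for Upp2 (5.46e-05), Ntrk2 (0.00145), Sqle (0.000381) and Ly6a (5.68e-06).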

How the results depend on the processing

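Over 49 alternatives to each of 121 named tissue differences, 0 changed direction, 12 values lost the call (8 genes) and 12 gained it (10 genes). The 6 strain genes kept their call in all. The stricter filter tests 6032 genes, and with that smaller set it gave 2798 tissue calls (627 higher in liver, 2171 in fat), 2970 strain calls, 0 day calls (565 at an unadjusted p under 0.05 by limma) and 9 covarying genes. Median centring gave 2313 and 2417 genes higher in liver and fat, and quantile normalization 2067 and 2532, against 1133 and 5567. Quantile normalization left 6 covarying genes. Without the lymphoid-rich libraries strain calls were 2426, day calls 0 and covarying genes 0. With their marker level as a covariate, chosen after seeing the data, day calls were 87, diet calls 1238 and covarying genes 33. With the number range as a covariate they were 1, 765 and 11. Day calls were 33 with a prior of 8 reads and 35 with voom weights, against 18. The cause of these moves was not tested.

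Leaving out 1 animal at a time gave 6645 to 6791 tissue calls, 5065 to 7551 strain calls, 4 to 49 day calls, 422 to 675 diet calls and 13 to 21 covarying genes. The day count was lowest without 1 C57Bl/6J or 1 DBA/2J animal of day 13, and highest without 1 DBA/2J animal of day 13 or 1 BALB/cJ animal of day 5. Without the replicate block, that is with the liver and fat libraries unpaired, 6684 genes were called against 6700, strain calls were 6017, day calls 27 and diet calls 508. Liver depth of 19500288 reads or more limits genes near 0 reads, where fold changes depend on the prior.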

Other observations

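Gm14403 and Zfp970, neighbouring zinc finger genes on chromosome 2, were among the 18 genes whose deviations went together in liver and fat (r 0.92 and 0.83), but Spearman's rho was 0.33 and 0.27 and the permutation p for r was 0.15 and 0.097. The r rests on 2 of 12 DBA/2J chow animals. In those 2 animals Gm14403 was at 2.59 to 3.20 log2 CPM in liver and 3.03 to 3.06 in fat, and in the other 10 it was at most -3.15 in liver and -2.22 in fat. All 12 C57Bl/6J and all 12 BALB/cJ chow animals had it above 1 in both tissues. On HFD Gm14403 was above 1 in both tissues in 2 of 12 DBA/2J animals, and in 9 it was at most -3.67 in liver and -2.43 in fat. These genes were singled out after their values were seen, and both belong to a cluster of near-identical copies whose reads may be divided among them.

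Brown fat genes were measured in some fat libraries: Ucp1, the uncoupling protein of brown fat, was in the fat table alone and ran from -3.81 (0 reads, in 6 libraries) to 7.96 log2 CPM, with a median of -2.13. Cidea, in the same list of 5 markers, ran from 1.96 to 8.42. Dio2 ran from -2.04 to 4.70 (median 0.89), and both were in the fat table alone. The 2 markers in both tables went opposite ways. Of these, 1 was higher in liver (D 7.90) and 1 higher in fat (D -5.42), each with no overlap of the tissues. The summed markers ran from 47.5 to 1458 CPM in liver (2 markers) and from 16.6 to 691 in fat (5 markers). The fat median, 37.4, was below the lowest liver sum.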
